A study of Mus musculus with 7 samples.

Results

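The neurotrophins and their receptors were examined through 6 genes of the 24346 in the deposited expression table, chosen by name: the ligand genes Bdnf and Ntf3, the Trk receptor genes Ntrk2 and Ntrk3, the p75 receptor gene Ngfr, and Sort1, the gene of sortilin. RNA came from primary neurospheres, which are floating clusters of dividing neural stem and progenitor cells, grown from the hippocampus of single mice in medium with FGF and EGF. The 4 control libraries (WT_215, WT_116, WT_213 and WT_220) came from littermates labelled wild type, given in the methods as Med23 flox/+ and Med23 flox/flox, with no Cre listed. The 3 Med23 CKO libraries (KO_117, KO_214 and KO_218) came from Nestin-CreER:Med23 flox/flox mice, in which tamoxifen activates a Cre that removes part of Med23, a subunit of the Mediator complex of RNA polymerase II. All mice were on the C57/BL6 strain, were 2 months old in the labels and received tamoxifen by gavage at 200 mg/kg once daily for 5 days, controls included. The methods of the study give a younger age at tamoxifen treatment for the cultures than the labels do. The Nestin-driven Cre is not limited to stem cells, since the study notes its activity in endothelial cells, and the table does not separate recombined from unrecombined cells.

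Neurotrophins are secreted growth factors made as longer precursors. BDNF, the product of Bdnf, binds the receptor tyrosine kinase TrkB, encoded by Ntrk2, and NT-3, the product of Ntf3, binds mainly TrkC, encoded by Ntrk3. Trk receptors signal through the Ras and ERK, PI3 kinase and phospholipase C gamma routes, whereas p75 binds all mature neurotrophins and, together with sortilin, their precursors. In the hippocampus BDNF and TrkB are known for their roles in neuronal survival, synaptic plasticity and the addition of newborn neurons, and a truncated TrkB without the kinase is the main form in astrocytes. The study compared Med23 CKO with control neurospheres to look for cues to the altered numbers of stem cells and newborn neurons in the Med23 CKO hippocampus.

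The deleted gene itself was listed at 11.4, 10.3, 12.9 and 10.1 FPKM (fragments scaled to transcript length and to the number of mapped fragments) in the controls, in the order given above, and at 9.97, 9.27 and 8.12 in the Med23 CKO libraries. All 3 Med23 CKO values lay below the control values, as was the case for 1.53% of all genes tested. The difference was -0.26 ± 0.18 (SE) on the log2(FPKM + 1) scale. Its unadjusted limma p was 0.175 and its exact permutation p was 0.0571. The value covers the whole gene and does not measure the deleted exons alone. The study itself reported the deletion by western blot of hippocampal tissue and by qRT-PCR of neurospheres. All 10 neural stem and progenitor markers were detected in every library and summed to between 1767 and 3863 FPKM. The 9 neuroblast and neuron markers summed to between 88.5 and 199 FPKM. Map2 was the highest of them, and Rbfox3, a marker of mature neurons, was at 0.847 to 4.23 FPKM. The 9 oligodendrocyte lineage markers summed to between 2241 and 4850 FPKM. Library KO_214 stood apart: it had the highest summed level of the microglia, endothelial, mural and astrocyte markers, and its 10 highest genes held 12.2% of its summed FPKM, against 5.12% in the lowest library. No library pair of 21 held identical values. The numbers of fragments behind the values are unknown, so precision is given only by the spread between mice, and fewer cells of a type cannot be told apart from less RNA per cell in these bulk samples.

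The 6 genes spanned a wide range of levels in the neurospheres. On the FPKM scale, which is per length and so allows genes to be compared, the means over the 7 libraries were 48.9 for Ntrk2, 34.2 for Sort1, 16.3 for Ntrk3, 3.49 for Bdnf, 1.62 for Ngfr and 0.132 for Ntf3. Ntrk2 exceeded the mean level of 92.3% of all genes in the table, Sort1 that of 88.6%, Ntrk3 77.3%, Bdnf 55.6%, Ngfr 49.2% and Ntf3 34.4%. Of the 6, the receptor genes Ntrk2, Sort1 and Ntrk3 thus had higher means than the ligand genes Bdnf and Ntf3. Each gene was above the next in this order in 6 of 7 libraries, with ranges that overlapped, except that Ngfr was above Ntf3 in 7 of 7 libraries with no overlap.

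Sequences bear on how far these levels can be read. In coding sequence of GENCODE M21 on GRCm38, the stretches shared by related members were short. The longest identical run, shown in capitals because a fragment lying wholly within it could not be assigned to one gene, had 17 bases for Bdnf (coding bases 727 to 743) and Ntf3 (766 to 782), and 23 bases for Ntrk2 (1828 to 1850) and Ntrk3 (1831 to 1853), on the coding strand.
Bdnf and Ntf3: ATAGACACTTCCTGTGT
Ntrk2 and Ntrk3: GACCCACTCATCATGGTCTTTGA
The run of 23 bases was the longest among the 4 pairs of ligand or Trk receptor genes compared. The annotation held a further ambiguity. Bdnf (chr2:109674700-109727007, forward strand, 11 transcripts) shares 896 exonic bases, 14.4% of its exonic length, with the antisense gene Gm45346, and Sort1 (chr3:108284082-108361511, forward strand) shares 338 bases, 4.47%, with the antisense gene Gm12523. Neither antisense gene is a row of the table, and whether fragments were assigned by strand is not given in the sources used here, so reads of the antisense genes and of Bdnf or Sort1 could not be told apart. Ntrk2 (chr13:58806569-59133970, forward strand) and Ntrk3 (chr7:78175959-78738012, reverse strand) each yield proteins of different lengths, 476 to 821 residues for Ntrk2 and 612 to 825 for Ntrk3, and one FPKM value per gene does not separate full-length receptors from those without the kinase.

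Bdnf was the higher of the ligand genes of the set, at 1.32 FPKM or more in every library. Its FPKM was 1.84, 3.34, 3.35 and 1.32 in the controls (mean 2.46 ± 1.04 SD, n = 4) and 2.21, 8.19 and 4.19 in the Med23 CKO libraries (4.86 ± 3.05 SD, n = 3). KO_214 was the highest of all and KO_218 the second, while KO_117 lay inside the control range, so the groups overlapped. The ratio of the group means was 1.98, and the difference on the log2(FPKM + 1) scale was 0.68 ± 0.41 (SE, 95% interval -0.27 to 1.63), with an unadjusted limma p of 0.137, an adjusted p of 1 and an exact permutation p of 0.2. Bdnf therefore did not differ beyond the spread between mice. Single libraries moved the value: the difference was 0.29 without KO_214 and 1.05 without KO_117, the latter with an unadjusted limma p of 0.0282, where the smallest adjusted p of any gene was 0.596.

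KO_214, in which Bdnf was highest, was the highest library for 25.4% of all genes tested. It also held the highest level of 7 of 9 microglia and macrophage markers and 8 of 8 endothelial markers. The same was true of 8 of 9 mural and fibroblast and 5 of 7 astrocyte markers. The summed FPKM of these lists ranged from 25.6 to 121 in the controls and 26.7 to 367 in the Med23 CKO libraries for microglia, from 7.68 to 61.1 and 6.28 to 104.6 for endothelial cells, from 47.8 to 97.3 and 53.6 to 329 for mural cells and fibroblasts, and from 322 to 539 and 237 to 860 for astrocytes. Every range overlapped between the groups. By limma 8 of 8 tested microglia, 8 of 8 endothelial, 8 of 9 mural and fibroblast and 5 of 7 astrocyte markers were higher in Med23 CKO. None of them passed an unadjusted p under 0.05. Of all 14151 genes tested, 6196 were higher. No marker of these lists was at 0 in any library, and Cx3cr1 was the one microglia marker under 1 FPKM throughout. The part of these cells in the Bdnf values was not tested.

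Ntf3 (chr6:126101412-126166910, reverse strand) was close to the bottom of the scale. It was listed at 0.0725, 0.191, 0.320 and 0 FPKM in the controls and at 0.107, 0.203 and 0.0299 in the Med23 CKO libraries. The highest and the lowest value were both in control libraries. With a mean under 0.5 FPKM it did not enter the test across genes, and its exact permutation p was 0.8.

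Ntf5, the gene of neurotrophin-4, which also binds TrkB, was listed at no more than 0.227 FPKM in any library and was not tested. Of these ligand genes, Bdnf was thus the one with a level above 1 FPKM in every library.

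Ntrk2, the gene of TrkB, was the most highly expressed of the 6 in 6 of 7 libraries. Its FPKM was 59.3, 31.9, 50.5 and 49.4 in the controls (47.8 ± 11.5 SD, n = 4) and 45.05, 55.1 and 51.1 in the Med23 CKO libraries (50.4 ± 5.06 SD, n = 3). All 3 Med23 CKO values lay within the control range. The difference was 0.11 ± 0.23 on the log2(FPKM + 1) scale (SE, 95% interval -0.43 to 0.64), with a limma p of 0.657 and an adjusted p of 1, and it was -0.07 without WT_116, the lowest library. No difference was detectable with these mice, and the interval still allows changes of up to 0.64.

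Ntrk3, the gene of TrkC, varied more. Its FPKM was 26.2, 6.39, 15.0 and 24.6 in the controls (18.0 ± 9.22 SD, n = 4) and 23.6, 8.17 and 9.97 in the Med23 CKO libraries (13.9 ± 8.41 SD, n = 3). WT_215, WT_220 and KO_117 were high and the other 4 libraries were lower, with both groups on each side. The difference was -0.33 ± 0.54 on the log2(FPKM + 1) scale (SE, 95% interval -1.57 to 0.92), with a limma p of 0.561 and an adjusted p of 1. Ntrk2 made up 69.3%, 83.3%, 77.1% and 66.8% of the summed FPKM of Ntrk2 and Ntrk3 in the controls and 65.7%, 87.1% and 83.7% in the Med23 CKO libraries. The share was highest in KO_214 and lowest in KO_117, both Med23 CKO.

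Ngfr, the gene of p75 (chr11:95568818-95587735, reverse strand, 1 transcript), was low in all libraries. Its FPKM was 1.68, 1.53, 1.17 and 1.21 in the controls (1.40 ± 0.245 SD, n = 4) and 2.55, 1.78 and 1.40 in the Med23 CKO libraries (1.91 ± 0.587 SD, n = 3). KO_117 and KO_214 were above every control and KO_218 was within the control range. The difference was 0.27 ± 0.21 on the log2(FPKM + 1) scale (SE, 95% interval -0.23 to 0.77), with a limma p of 0.25, an adjusted p of 1 and an exact permutation p of 0.171, and it was 0.11 without KO_117.

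Sort1, whose product sorts proBDNF in the cell and acts with p75 as a receptor of precursor neurotrophins, was listed at 30.1, 45.6, 34.2 and 21.2 FPKM in the controls (32.8 ± 10.1 SD, n = 4). In the Med23 CKO libraries it was at 26.0, 45.6 and 36.6 (36.1 ± 9.80 SD, n = 3). The highest values of the 2 groups were almost equal and the groups overlapped. The difference was 0.15 ± 0.30 on the log2(FPKM + 1) scale (SE, 95% interval -0.54 to 0.84), with a limma p of 0.628 and an adjusted p of 1, and its sign turned without WT_220 (-0.04) or without KO_214 (-0.03).

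**Figure D1:**
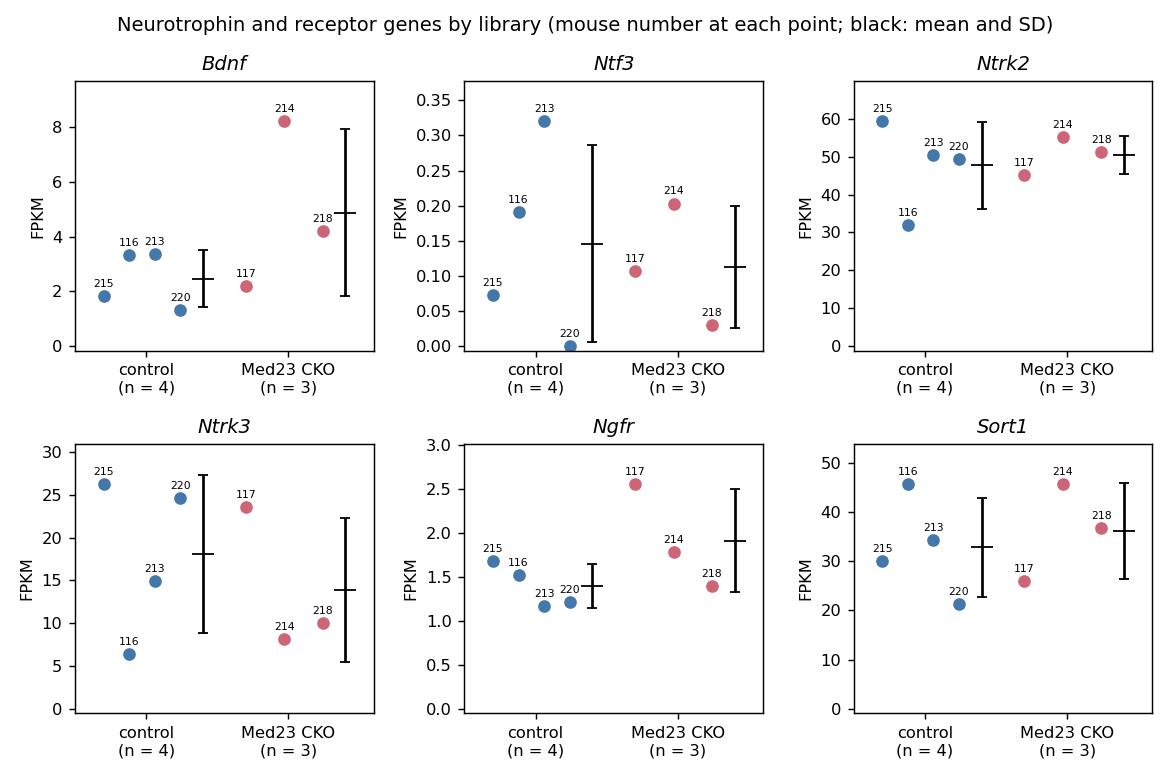
FPKM (y axis, linear from 0, scaled for each gene) of the 6 genes in each library, controls in blue and Med23 CKO in red, with the mouse number at each point and the group mean and SD in black. The groups overlap for every gene, KO_214 is highest for Bdnf at 8.19, and Ntrk3 splits the mice into high and low libraries of both groups.

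Of the 5 genes tested, 4 were higher and 1 was lower in Med23 CKO, with a median difference of 0.15 on the log2(FPKM + 1) scale, and limma called 0 at an unadjusted p under 0.05, where 1.5% of the 14151 genes tested were called. In 0 of the 5 did the groups not overlap, against 2.32% of all genes tested. The 3 Med23 CKO values lay above the 4 control values for 0.784% of all genes and below them for 1.53%. Over all genes, the unadjusted threshold was passed by 71 that were higher and 141 that were lower (102 and 123 with quantile normalization, 99 and 119 with median centring), and 0 (0.0%) had an adjusted p under 0.05. The median difference of all genes was -0.03, with 6196 higher and 7955 lower. The median log2(FPKM + 1) of the tested genes was lowest in KO_218, at 3.38. In the other libraries it ran from 3.48 in WT_116 to 3.61 in WT_215.

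The sortilin family receptors other than Sort1 were compared in the same way. Sorcs1 had a mean of 16.1 FPKM in the controls and 15.2 in Med23 CKO, Sorcs2 17.1 and 13.4, Sorcs3 2.44 and 2.24, and Sorl1, the gene of the sorting receptor SorLA, 6.06 and 7.82. The groups overlapped for all 4, and none had an unadjusted p under 0.05, with differences of -0.25 ± 0.59, -0.30 ± 0.26, -0.17 ± 0.48 and 0.12 ± 0.50 (SE) on the log2(FPKM + 1) scale.

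Among the genes that surround the ligands and receptors, Plat stood out. Plat encodes tissue plasminogen activator, the protease that turns plasminogen into plasmin, which cleaves proBDNF outside the cell. Its FPKM was 62.7, 67.5, 76.4 and 88.8 in the controls (73.8 ± 11.5 SD, n = 4) and 36.6, 46.6 and 31.1 in the Med23 CKO libraries (38.1 ± 7.89 SD, n = 3). The controls all lay above the 3 Med23 CKO libraries, as was the case for 1.53% of all genes tested. The difference was -0.94 ± 0.20 on the log2(FPKM + 1) scale (SE, 95% interval -1.41 to -0.47) with an unadjusted limma p of 0.00185, and the exact permutation p of 0.0286 is the smallest that 35 splits can give. Its adjusted p was 1, so Plat did not pass the correction over all genes. Whichever library was left out, the difference lay between -1.10 and -0.81.

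Of the 16 genes of pro-neurotrophin processing and release, 15 were tested, of which 7 were higher, 8 were lower and 1, Plat, had an unadjusted p under 0.05, beside 1.5% of all genes tested. The median difference of the list was -0.05, and its sign turned with 1 library left out: it was 0.17 without KO_117 (9 higher, 6 lower), 0.13 without WT_116 and 0.05 without WT_213, against -0.22 without WT_220 and -0.14 without KO_214. Furin, an enzyme that cleaves pro-neurotrophins in the secretory pathway and was named here after its values were seen, had a mean of 11.9 FPKM in the controls and 14.9 in Med23 CKO, with groups that overlapped.

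Of the 18 partners and adaptors of p75, all were tested, 6 were higher and 12 lower, with a median of -0.07. Without KO_218 this turned to 10 higher and 8 lower with a median of 0.05. All genes tested turned as well in that fit, to 7215 higher and 6936 lower with a median of 0.0049. The median of the list was -0.17 without KO_117 and -0.11 without WT_213. Tnfrsf19, which encodes the p75-related receptor TROY, was the one gene of the 18 at an unadjusted p under 0.05, beside 1.5% of all genes tested. Its FPKM was 22.0, 13.1, 18.3 and 19.3 in the controls and 11.4, 11.1 and 14.0 in the Med23 CKO libraries. KO_218 lay above WT_116, so the groups overlapped. The difference was -0.53 ± 0.21 (SE) on the log2(FPKM + 1) scale, with a limma p of 0.0420, an adjusted p of 1 and an exact permutation p of 0.0857. The unadjusted call was lost with quantile normalization (limma p of 0.0572), with median centring (0.0534) and without WT_215, WT_213, WT_220, KO_117 or KO_214 (0.0863 to 0.114).

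Trk signal transduction, from the adaptors Shc and Frs2 to Ras, ERK and Akt, gave 40 tested genes of 40, of which 14 were higher and 26 lower, with a median of -0.08 and 0 at an unadjusted p under 0.05 by limma. Without KO_218 the list turned to 22 higher and 18 lower with a median of 0.0146, where all genes tested also turned (7215 higher, 6936 lower, median 0.0049). The median of the list was -0.15 without KO_117, -0.0188 without KO_214 and -0.0127 without WT_215. Array weights gave 7 higher and 33 lower, 4 of these at an unadjusted limma p under 0.05. With the same weights 8679 of all 14151 genes tested were lower, 887 of them at that threshold. Nedd4l, which encodes a ubiquitin ligase and was named after its values were seen, was the one gene of the 40 whose groups did not overlap, a share near the 2.32% of all genes tested. It was at 3.24 to 4.36 FPKM in the controls and at 6.63, 5.04 and 4.70 in the Med23 CKO libraries, with an unadjusted limma p of 0.0898 and an adjusted p of 1.

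Genes known to respond to BDNF and to other stimuli of the ERK route were lower in 15 of 17 cases, beside 7955 of all 14151 genes tested. Their median difference was -0.84 on the log2(FPKM + 1) scale, beside -0.03 over all genes tested. Of the 17, 2 had an unadjusted limma p under 0.05, beside 1.5% of all genes tested. In 2 the groups did not overlap, beside 2.32%. The list holds immediate early genes that earlier results of these libraries had already shown to be low, so its direction is not independent evidence, and 0 of its genes passed the adjusted threshold. Nr4a1, a nuclear receptor gene, was at 24.4, 9.60, 10.5 and 20.9 FPKM in the controls and 6.98, 8.34 and 3.28 in the Med23 CKO libraries. The controls again all lay above the 3 Med23 CKO libraries, as for 1.53% of all genes tested. The nearest values were WT_116 at 9.60 and KO_214 at 8.34. The difference was -1.24 ± 0.42 (SE), with a limma p of 0.0194 and an adjusted p of 1. Without KO_218 it was -0.90 and the unadjusted call was lost (limma p of 0.0767), and without WT_215 or without WT_220 the p was 0.0499.

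Egr1, a zinc finger transcription factor gene, was at 146 and 160 FPKM in WT_215 and WT_220, at 23.7 and 37.9 in WT_116 and WT_213, and at 4.76, 36.9 and 14.5 in the Med23 CKO libraries. The groups overlapped, and the difference was -2.20 ± 0.86 (SE), with a limma p of 0.0353 and an adjusted p of 1. The unadjusted call was lost without WT_215 (limma p of 0.0850), WT_220 (0.0841), KO_218 (0.0802) or KO_117 (0.117, with a difference of -1.51). The median of the list rested in part on KO_117, which was the lowest library for 11 of the 17 genes (64.7%, against 20.6% of all genes tested). Without it the median was -0.30, with 13 genes lower and 4 higher.

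Of the 15 regulators of Bdnf transcription, 6 were higher and 9 lower, with a median of -0.10 and 0 at an unadjusted p under 0.05 by limma. Without KO_218 this turned to 9 higher and 6 lower with a median of 0.04, where all genes tested also turned (7215 higher, 6936 lower). The median of the list was -0.20 without KO_214, -0.17 without KO_117, -0.06 without WT_215 and -0.35 with array weights. Creb1, the gene of the cAMP response element binding protein, was named after its values were seen and had a mean of 11.7 FPKM in the controls and 13.5 in Med23 CKO, with groups that overlapped. Npas4, an activity-dependent transcription factor gene also named after its values were seen, was at 0.967 to 1.52 FPKM in the controls and at 0.279, 0.932 and 0.612 in the Med23 CKO libraries. All 3 were below the controls, as for 1.53% of all genes tested, with a difference of -0.45 ± 0.22 (SE) and an unadjusted limma p of 0.0745. Npas4 is also on the list of 17 BDNF-responsive genes.

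Across the 7 lists, 124 of 130 genes were tested, 45 were higher and 79 lower. Of all 14151 genes tested, 6196 were higher and 7955 lower. In the lists 0 higher and 4 lower genes were past an unadjusted limma p of 0.05, beside 0.502% and 0.996% of all genes tested.

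**Figure D2:**
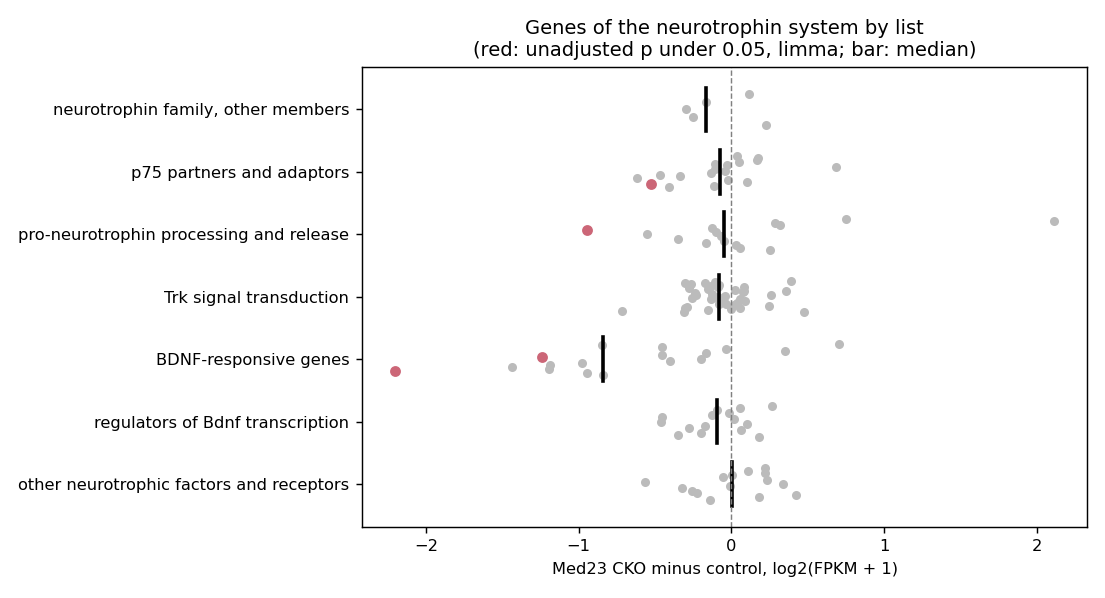
Difference between Med23 CKO and control for each tested gene of the 7 lists (x axis, log2(FPKM + 1)), 1 point per gene, with the median of each list as a black bar and genes at an unadjusted limma p under 0.05 in red. The 4 red points are Tnfrsf19, Plat, Nr4a1 and Egr1, all to the left of 0, and the medians lie between -0.17 and 0.0019 except that of the BDNF-responsive genes at -0.84.

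**Figure D3:**
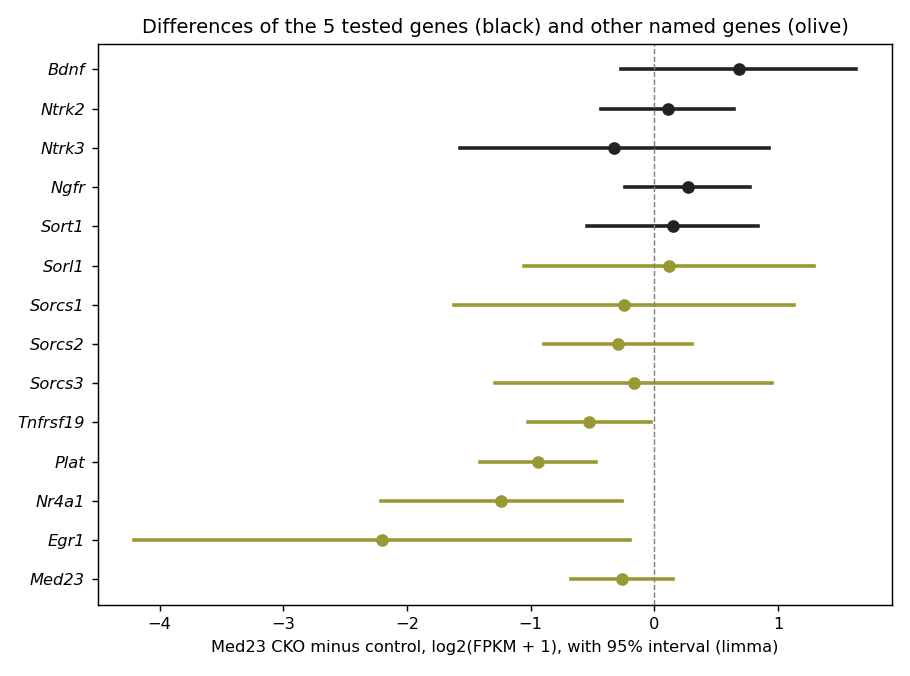
Difference between Med23 CKO and control (x axis, log2(FPKM + 1)) with its 95% interval from limma, for the 5 tested genes in black and other named genes in olive. The 5 black intervals include 0, and the interval of Plat, -1.41 to -0.47, does not.

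Bdnf has several alternative first exons, each with its own promoter, and the gene-level FPKM sums over them. RefSeq on GRCm38.p6 gave promoter windows for 4 of the 6 genes, 7 of them for Bdnf. Both Bdnf promoters that held a searched motif are shown, since CREB and AP-1 factors, encoded by genes of the lists above, bind motifs of these kinds. Each sequence is the 250 bases before the start on the forward strand, in the order 5′ to 3′, with the motif in capitals.
Bdnf promoter at chr2:109676782-109677031: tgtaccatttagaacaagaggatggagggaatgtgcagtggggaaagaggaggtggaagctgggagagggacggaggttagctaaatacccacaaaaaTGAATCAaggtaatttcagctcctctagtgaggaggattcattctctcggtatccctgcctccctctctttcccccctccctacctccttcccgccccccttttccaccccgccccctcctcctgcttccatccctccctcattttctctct
Bdnf promoter at chr2:109692186-109692435: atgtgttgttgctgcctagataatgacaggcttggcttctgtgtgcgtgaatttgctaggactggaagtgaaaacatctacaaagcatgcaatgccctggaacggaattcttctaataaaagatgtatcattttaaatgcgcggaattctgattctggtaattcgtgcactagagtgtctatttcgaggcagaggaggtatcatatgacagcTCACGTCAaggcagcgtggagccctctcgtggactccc
The first holds a match to the AP-1 pattern as searched (TGANTCA, where N is any base) that begins 152 bases before the start. The match has A at the open position, and whether AP-1 factors bind this form was not tested. The second holds a CRE-like motif (TCACGTCA) that begins 38 bases before the start. Among 32851 promoter windows of 300 bases, searched on both strands, the loose AP-1 pattern was found in 7.81% and the CRE-like motif in 0.441%. The full CRE (TGACGTCA) was found in 1.79%, the E-box (CACGTG) in 7.15% and the EGR motif (GCGGGGGCG) in 2.91%. The CRE-like motif differs from the full CRE and does not overlap the AP-1 pattern as searched. The matches are descriptions of the reference sequence, and no binding was measured.

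Much of the variation of the 6 genes ran across the groups. WT_215, WT_220 and KO_117, the 3 libraries highest for Ntrk3, were the 3 lowest for both Bdnf and Sort1. The pattern was common in the table: these were the 3 highest libraries for 26.1% of the genes tested and the 3 lowest for 23.6%. They were the highest for 17 of the 40 genes of Trk signal transduction and the lowest for 1.

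Several lists of cell type markers, though not all, were divided in the same way. The 3 libraries were the highest for 6 of 10 neural stem and progenitor markers, among them Nes, Sox2, Fabp7, Pax6 and Hes5, and for the oligodendrocyte progenitor genes Olig1, Olig2 and Cspg4, 3 of the 9 markers of that lineage. They were the lowest for 4 of the same 9, among them the myelin genes Mbp, Mag and Mog, and for 4 of 7 astrocyte, 6 of 8 tested microglia and 8 of 8 endothelial markers. The stem cell marker Prom1 was the other way round, with these libraries the 3 lowest. They were the highest for 1 of 9 and the lowest for 1 of 9 mural and fibroblast markers (11.1% each), and the highest for 1 of 9 (11.1%) and the lowest for 3 of 9 (33.3%) neuroblast and neuron markers. Olig1 was at 1361, 1943 and 1586 FPKM in WT_215, WT_220 and KO_117, and at 214.5 to 603 in the other 4. In Med23 CKO 9 of 10 stem and progenitor markers were lower (median difference -0.30), as were 8 of 9 oligodendrocyte lineage markers (-0.73) and 6 of 9 neuroblast and neuron markers (-0.19). No tested marker of any list differed between Med23 CKO and control at an unadjusted p under 0.05 by limma, and the summed ranges of the stem cell list (1828 to 3863 FPKM in the controls, 1767 to 3852 in Med23 CKO) and the oligodendrocyte list (2676 to 4850 and 2241 to 2922) overlapped. The part of the cell type markers in the levels of Ntrk3, Bdnf and Sort1 was not tested.

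**Figure D4:**
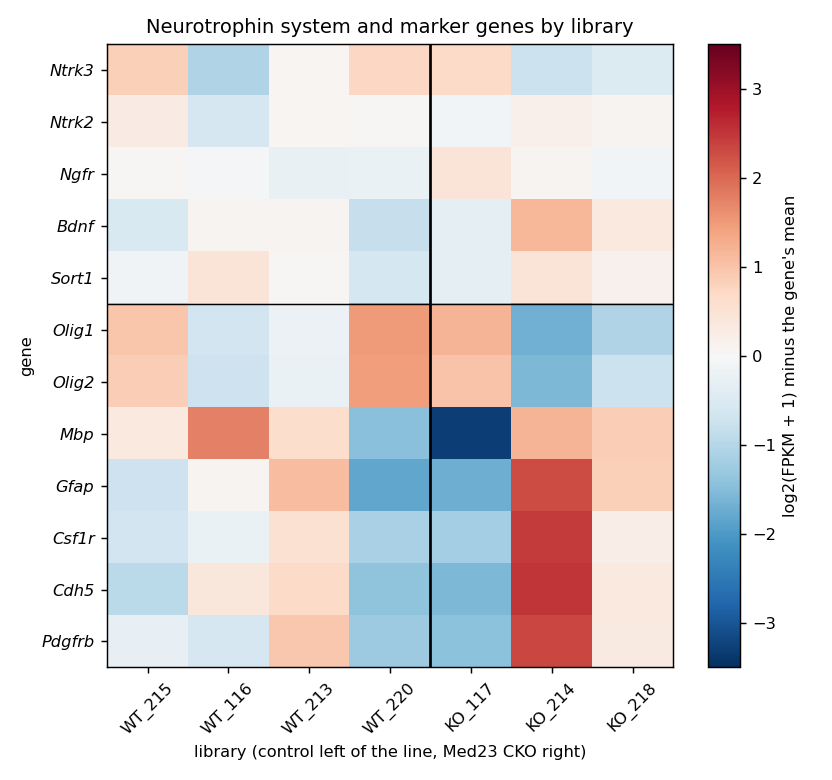
Color shows log2(FPKM + 1) minus the mean of the gene over the 7 libraries, lower in blue and higher in red, for the 5 tested genes (top) and 7 marker genes (bottom), controls left of the vertical line. Ntrk3, Olig1 and Olig2 are red in WT_215, WT_220 and KO_117, where Bdnf and Sort1 are blue, and KO_214 has the deepest red for Gfap, Csf1r, Cdh5 and Pdgfrb.

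The genes with the pattern most like each tested gene were found by Pearson correlation of log2(FPKM + 1) over the 7 libraries among 13132 genes, as a description of libraries that share the division above. For Ntrk3 they were Cib2 (r = 0.997), Npas3 (0.991) and Zfp236 (0.989), and for Sort1 they were Fech (0.996), Tmem167b (0.995) and Gtf3c3 (0.994). For Bdnf they were Pygl (0.985), Slc16a1 (0.984) and Mpp1 (0.983). Ntrk2 and Ngfr, which did not follow the division, had lower best values, with Nhej1 (0.971), Klhdc7a (0.957) and Phf7 (0.950) for Ntrk2 and Gpc3 (0.926), Neo1 (0.923) and Mtfp1 (0.922) for Ngfr.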

How the data were processed

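RNA from primary neurospheres of 4 control and 3 Med23 CKO mice was sequenced by the authors, who removed adapters with cutadapt, checked reads with FastQC, mapped them to mm10 by Tophat (default settings) and calculated FPKM with Cuffdiff. The deposited FPKM values per gene and library were used. The annotation and the handling of strand are not given in the sources used here. The table also holds the authors' group means, log2 fold change, test statistic, p-value and q-value, which were not used. Columns were matched to samples by title. The paper gives n = 3 in either group and does not name the control mice used, so all 4 control libraries were kept.

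Values were analysed as log2(FPKM + 1) for the 14151 genes whose mean FPKM was 0.5 or more, by limma 3.58.1 (lmFit, eBayes with trend, two-sided, Benjamini-Hochberg adjustment over these genes) in R 4.3.3. Single genes were also tested by exact two-sided permutation over the 35 splits into 4 and 3 libraries, with a smallest p of 0.0286. Fold changes on this scale understate those of low genes. FPKM values gave no whole-fragment steps, so depth is unknown. The limma script was tested on simulated data.

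The 6 genes and all lists were chosen with earlier results of these data known. Named were the 6 genes, Med23, the rest of the neurotrophin family (some genes are not reported here), up to 3 genes per list and direction with the smallest unadjusted p under 0.05, and the 3 most similar genes of each tested gene among those with a mean FPKM of at least 1. Ngfrap1 is the name of Bex3 in the table. Alternatives covered the pseudocount, the filter, the scaling, the variance model, library weights, a covariate (the leading digit of each mouse's number) and each library left out. Python 3.11.15 was used for counts and sequences.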

Additional observations from a re-analysis of the deposited data

How the results depend on the processing

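Over 16 alternatives, the 5 tested genes gave 80 differences, of which 76 kept their direction and stayed at an unadjusted limma p over 0.05, 1 passed it and 3 turned sign. In fits that each left out 1 library, the differences on the log2(FPKM + 1) scale ran from 0.29 to 1.05 for Bdnf, from -0.072 to 0.22 for Ntrk2, from -0.0353 to 0.36 for Sort1, from -0.76 to -0.05 for Ntrk3 and from 0.11 to 0.40 for Ngfr. The unadjusted limma p of Bdnf was 0.0282 without KO_117. The differences ran from -0.82 to 0.34 for Sorcs1, from -0.64 to 0.21 for Sorcs3 and from -0.34 to 0.72 for Sorl1. Genes higher at an unadjusted p under 0.05 numbered 140 with no filter, 193 with array weights and 45 to 354 with a library left out, and genes lower numbered 887 with array weights and 70 to 410 with a library left out, where the highest counts were those without KO_117. At an adjusted p under 0.05 there were 0 to 1 genes with a library left out, none of them named in the report. Over all lists, 0 to 2 genes were higher and 2 to 10 lower at an unadjusted p under 0.05 with a library left out, and 14 were lower with array weights and 7 with the leading digit of each mouse's number as a covariate. The cause of these changes was not tested. No paired analysis was made, because the labels do not give the litter of each mouse. The 7 mice, not a known depth, limit the precision.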

Other observations

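Neurotrophic factors outside the neurotrophin family were described from a list of 18 genes of the GDNF and CNTF families and their receptors, of which 15 were tested. By limma 8 were higher and 7 were lower, 0 of them at an unadjusted p under 0.05 or an adjusted p under 0.05, and the median difference was 0.0019 on the log2(FPKM + 1) scale (-0.14 to 0.16 with 1 library left out). Gfra1, the co-receptor gene for GDNF, and Ret, the gene of the receptor tyrosine kinase that GDNF family ligands share, are named after their values were seen. Gfra1 was at 11.4, 17.3, 12.6 and 3.45 FPKM in the controls and 2.79, 17.5 and 10.3 in the Med23 CKO libraries, with WT_220 and KO_117 the lowest of their groups. Ret was between 0.289 and 1.20 FPKM in 6 libraries and at 3.73 in KO_117. The groups overlapped for both genes.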
